A study of Arabidopsis thaliana with 42 samples.

Results

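Small RNA sequences of exactly 21 nt, the length at which most plant microRNAs are made, were followed through the lifespan of the Arabidopsis thaliana leaf, from 4 to 28 days after the leaf emerged. A sequence was included when it was 21 letters long, was written without U and was listed in both deposited small RNA count tables, and a sequence and its reverse complement were counted once. This gave 4803 sequences of the 53340 listed in both tables at 18 to 48 nt, or of the 39033 at 18 to 28 nt. For comparison, 3783 sequences had 22 nt and 5625 had 24 nt.

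The study sampled wild-type leaves at 4, 8, 12, 16, 20, 24 and 28 days, with 1 library per age in each of 2 sets that the labels call independent biological replicates, 14 small RNA libraries in all. No mutant and no agent was part of these groups. For tests, ages were joined into 3 stages of 4 libraries each: young (days 4 and 8), mature (days 12 and 16) and old (days 24 and 28); day 20 is shown but is in no stage. These are whole leaves, so fewer cells of a type and less RNA per cell cannot be told apart, and p-values measure the spread between libraries, which may be partly technical.

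MicroRNAs are cut from folded precursor transcripts by the nuclease DCL1 and loaded mostly into the effector protein AGO1, which then cleaves matching messenger RNAs or blocks their translation. Trans-acting siRNAs, made by DCL4 from TAS transcripts that a microRNA has cut, have the same length. In leaves, microRNAs set the upper and lower sides of the blade (miR165 and miR166), the change from cell division to expansion (miR319, miR396) and the pace of ageing (miR164, which restrains the senescence regulator ORE1), while another group answers to copper, phosphate and sulphate supply. Ageing leaves dismantle their chloroplasts and export nutrients.

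The 10 most abundant sequences are printed first because they hold most of the reads. MicroRNAs are written 5′ to 3′ in RNA letters, as the tables also list them, with the seed (bases 2 to 8, the stretch that pairs most strictly with targets) in capitals. The tables list a sequence in either orientation, so the others are written in the orientation kept here, which is not necessarily that of the RNA. The files give no names: microRNA names were recognised from the letters, and unnamed sequences are called by their rank in mean abundance.
miR166 (rank 1): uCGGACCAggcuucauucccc
rank 2: aacagaccggtagacttgaac
miR165 (rank 3): uCGGACCAggcuucauccccc
miR159a (rank 4): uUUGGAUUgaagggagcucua
miR159b (rank 5): uUUGGAUUgaagggagcucuu
miR398b (rank 6): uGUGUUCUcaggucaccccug
rank 7: gtcggcgatacgctcctggtc
rank 8 (the letters of miR167a-3p): gatcatgttcgcagtttcacc
rank 9: gcgtgctccgggcgtcggcct
miR396b (rank 10): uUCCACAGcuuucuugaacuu

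Ranks 2, 7 and 9 also lie inside longer listed sequences. They are shown in the most abundant longer sequence that holds each, with the 21 nt in capitals, because their changes with age are set beside those of the microRNAs.
rank 2 in 32 nt: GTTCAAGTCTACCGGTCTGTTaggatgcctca
rank 7 in 39 nt: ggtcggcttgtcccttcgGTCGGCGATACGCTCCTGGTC
rank 9 in 42 nt: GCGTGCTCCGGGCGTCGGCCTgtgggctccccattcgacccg

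A further set carries the age changes among less abundant sequences: microRNAs of copper and phosphate supply and of ageing, a trans-acting siRNA, and the unnamed sequences with the largest changes between stages.
miR827 (rank 40): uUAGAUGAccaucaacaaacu
miR408 (rank 45): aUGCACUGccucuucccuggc
miR164a (rank 513): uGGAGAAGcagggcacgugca
miR160 (rank 23): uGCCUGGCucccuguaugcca
miR169h (rank 184): uAGCCAAGgaugacuugccug
tasiR-ARF (rank 110): ttcttgaccttgtaagacccc
rank 64 (the letters of miR398a-5p): aaggagtggcatgtgaacaca
rank 149: atcatgctatctctttggatt
rank 363: atcagcctcatgaaaacctta
rank 431: ggggatgaagcctggtccgag
rank 615: acagagccaaggtcaacttgc

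The listed reads of 18 to 28 nt numbered 1667551 to 7386228 per library (median 4590543), of which 386109 to 1778721 had 21 nt. Values below are RPM, reads scaled to 1000000 of these 18 to 28 nt reads. The limit that a count of 0 allows, 3 counts, was 0.406 to 1.80 RPM, and 28 to 733 of the sequences were at 0 in a library, most in the shallow libraries of days 24 and 28. Every sequence had at least 5 counts in its second-highest library of each table, so rarer sequences were outside what was listed. The day 4 library of set 1 stood apart: across the 21 nt sequences its log RPM correlated with set 2 at r = 0.827, against 0.876 to 0.915 at the other ages (across sequences, which are not independent). Where a result rests on it, the value with that library left out stands beside it.

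The 21 nt reads were concentrated in very few sequences. The 4 sequences with a mean of at least 10000 RPM held 60.5% of mean 21 nt abundance, the 22 with at least 1000 RPM held 80.7%, the 96 with at least 100 RPM held 88.6% and the 844 with at least 10 RPM held 95.9%. The single most abundant sequence took 26.7% to 50.3% of the 21 nt reads of a library. Between 1 and 4 sequences made up the first 50% of the reads in every library. Sequences also overlapped in letters: 3918 of the 4803 (81.6%) shared at least 18 letters with another, and the 4803 fell into 1567 linked groups of up to 54, so they are not independent.

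Diversity was expressed as an effective number, the exponential of the Shannon entropy, which is the number of equally abundant sequences that would give the same spread of reads. At 21 nt it averaged 27.9 ± 6.89 (SD, n = 14 libraries), against 129.8 ± 88.3 at 22 nt and 416.1 ± 171 at 24 nt, and it was lower at 21 nt in 14 of 14 libraries. The 10 most abundant sequences of a length held 73.5% ± 3.64 of the reads at 21 nt, 52.3% ± 9.96 at 22 nt and 35.6% ± 6.43 at 24 nt. The 21 nt sequences made up 27.4% ± 2.88 of the 18 to 28 nt reads, against 6.88% ± 0.753 for 22 nt and 5.39% ± 0.911 for 24 nt. The length with the next largest mean share was 23 nt, at 15.9% ± 4.27 (8.66% to 24.1% by library, against 23.2% to 33.0% for 21 nt). Each of these differences between 21 nt and 22 or 24 nt had the same direction in all 14 libraries (exact two-sided sign-flip permutation test within libraries, p = 0.00012 each, the smallest that 16384 arrangements can give, and 0.00012 after Benjamini-Hochberg adjustment over 8 tests).

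**Figure D1:**
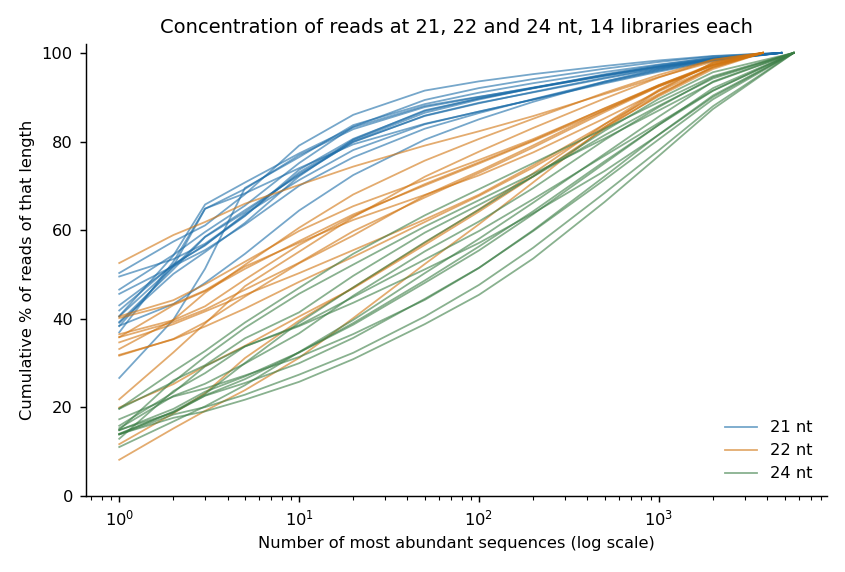
Cumulative share of reads (percent) against the number of sequences taken from the most abundant down (log axis), for 21, 22 and 24 nt, with lines for individual libraries. The 21 nt lines rise first: the 10 most abundant sequences held 64.4% to 79.1% of 21 nt reads, 31.2% to 70.2% of 22 nt reads and 25.8% to 47.0% of 24 nt reads.

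The share of 21 nt reads showed no change with age that held in both sets. In set 1 the share was 26.9%, 30.0%, 26.9%, 26.9%, 33.0%, 30.0% and 31.4% at days 4, 8, 12, 16, 20, 24 and 28. In set 2 it was 24.1%, 28.8%, 26.0%, 25.6%, 26.5%, 24.4% and 23.2% at the same ages. Day 8 was above day 4 in both sets, and the sets then parted, set 1 being higher in old than in mature leaves and set 2 lower. Wilson 95% intervals on these shares were at most 0.0685 percentage points wide on either side (counting error only). Stage means were 27.5% ± 2.58 in young, 26.4% ± 0.655 in mature and 27.2% ± 4.07 in old leaves (SD, n = 4 each). No stage difference passed (exact two-sided permutation test over 8 libraries, 70 arrangements: p = 0.4 mature against young, p = 0.629 old against mature, p = 1 old against young).

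The denominator set the direction of this result. As a share of all listed reads of 18 to 48 nt, 21 nt sequences made up 23.1% ± 4.50 in young, 19.0% ± 1.60 in mature and 9.16% ± 2.42 in old leaves (SD, n = 4 each). On that scale old leaves were lower by 9.87 percentage points than mature and by 13.9 than young leaves (exact permutation test, unadjusted p = 0.0286 for each, the smallest that 70 arrangements can give). No adjusted p was computed for this scale. The listed reads longer than 28 nt grew with age, so the values by 18 to 28 nt reads describe 21 nt relative to small RNA lengths only.

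Concentration differed between mature and young leaves by the unadjusted test. The 10 most abundant sequences held 72.1% ± 0.579 of 21 nt reads in mature leaves and 76.2% ± 1.5 in young leaves, a difference of -4.05 points, with no overlap between the 8 libraries (exact permutation p = 0.0286, the smallest possible, and 0.214 after adjustment over 15 stage tests). The effective number was 30.3 ± 1.39 in mature and 25.8 ± 3.27 in young leaves, a difference of 4.53 (exact permutation p = 0.0286, adjusted 0.214). Neither passed the adjustment, and both depended on how diversity was counted. With reverse complements kept apart the effective number differed by 0.433 (exact permutation p = 0.971), and as the inverse Simpson number by -0.593 (p = 0.743). For the same 10 sequences in every library the share differed by -1.31 points (exact permutation p = 0.257). Old leaves had an effective number of 30.6 ± 11.2 and a share of the 10 most abundant of 70.7% ± 4.65, and none of the old-stage contrasts passed (exact permutation test, lowest raw p = 0.0571, the 10 most abundant in old against young leaves, -5.52 points). In old leaves the sets stood apart: the effective number was 21.01 and 23.7 in set 1 and 32.1 and 45.8 in set 2 at days 24 and 28. The log2 ratio of 21 to 22 nt reads was 1.86 ± 0.154 in young, 1.84 ± 0.0756 in mature and 2.15 ± 0.265 in old leaves, and that of 21 to 24 nt was 2.58 ± 0.396, 2.32 ± 0.127 and 2.11 ± 0.385 in the same order. No contrast of these ratios passed (exact permutation test, lowest raw p = 0.0857).

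**Figure D2:**
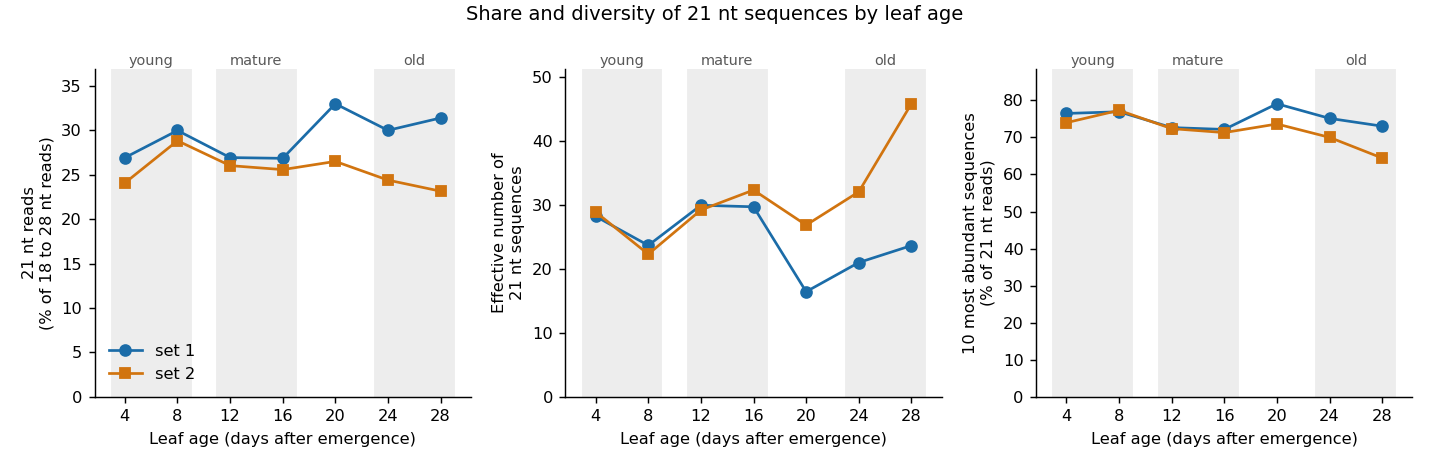
Share of 21 nt reads among 18 to 28 nt reads (percent), effective number of sequences and share of the 10 most abundant (percent) against leaf age in days, 1 point per library and 1 line per set. The sets lie close together at days 12 and 16 and part at days 20, 24 and 28, where set 1 had the higher share and the lower effective number.

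The 4803 sequences were sorted into 4 classes by how else they appear in the tables. Those also listed in RNA letters, in a further row with U in place of T, numbered 71 and held 57.7% to 70.05% of 21 nt reads per library. A further 71, called end variants, shared a run of at least 18 letters with a sequence listed in RNA letters, and held 1.67% to 2.64%. That sequence could be of any length and need not be among the first 71. The 3244 found whole inside a listed sequence of 29 nt or more, called nested, held 20.8% to 33.8%. The remaining 1417 held 5.30% to 9.17%. By number 67.5% of the sequences were nested, whereas by reads the RNA-letter class was the largest in all 14 libraries.

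The classes differed in composition. Mean GC content was 54.9% for nested sequences, against 45.5% for the RNA-letter class, 46.9% for end variants and 42.7% for the remaining ones. The share of reads that were nested averaged 27.2% ± 3.70 at 21 nt, against 88.3% ± 2.09 at 22 nt and 83.4% ± 6.33 at 24 nt (SD, n = 14), and was lower at 21 nt in 14 of 14 libraries (exact sign-flip permutation test, p = 0.00012, the smallest possible). Within the RNA-letter class, 55 of the 71 (77.5%) begin with U, the 5′ base that AGO1 prefers, and these carried 99.5% of the class's mean RPM. The 71 hold 59 different seeds, 11 of them shared. The seed CGGACCA of miR165 and miR166 alone carried 73.0% of the class's mean RPM, and the miR159 seed UUGGAUU 12.1%.

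No class sum passed the test between stages. The RNA-letter class averaged 178855 ± 20394 RPM in young, 161656 ± 4098 in mature and 172284 ± 38635 in old leaves (SD, n = 4). Nested sequences averaged 69072 ± 4504, 74772 ± 2277 and 78036 ± 3808 RPM at the same stages. For the remaining class the log2 difference between old and mature leaves was -0.42 ± 0.29 (SE; edgeR quasi-likelihood test, adjusted p = 0.391). Old leaves again differed by set in the class shares, as the plot of classes by library shows.

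**Figure D3:**
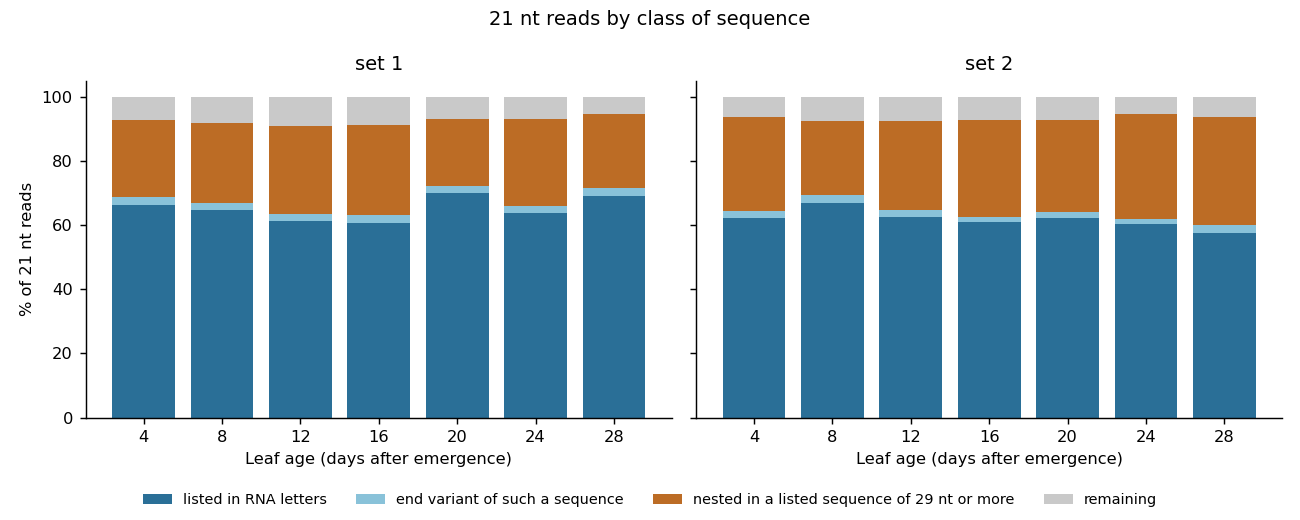
Share of 21 nt reads (percent, bars from 0) in each of the 4 classes for every library, ordered by age within each set. The RNA-letter class was the largest in every library, at 57.7% to 70.05%.

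Most single sequences did not pass the test between neighbouring stages. Of the 4803, 4043 passed the filter of at least 10 counts in at least 2 libraries and were tested by edgeR's quasi-likelihood test, fitted and Benjamini-Hochberg adjusted over all 46841 features of every length (threshold 0.05). Between mature and young leaves, 123 rose (3.04% of those tested) and 28 fell (0.693%), against 2.03% and 0.222% of all features. Between old and mature leaves, 209 rose (5.17%) and 167 fell (4.13%), against 8.33% and 2.15%. Between old and young leaves, 509 rose (12.6%) and 453 fell (11.2%), against 13.4% and 5.75%. Over all 7 ages, 409 changed (10.1%), against 9.07% of all features. The median log2 difference of the 4043 was 0.06, -0.39 and -0.35 for the 3 stage contrasts, against 0.07, -0.11 and 0.00 for all features. For features of 18 to 28 nt it was 0.10, -0.37 and -0.29. In old against young leaves it was -0.41 at 22 nt and -0.49 at 24 nt. At an unadjusted p under 0.05 the counts were 668, 1015 and 1543. The old-against-young contrast shares its libraries with the other contrasts.

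By class, 8 of 69 RNA-letter sequences tested rose (11.6%) and 27 fell (39.1%) in old against young leaves, beside the 13.4% and 5.75% of all features. Among features of 18 to 28 nt, 11.6% rose and 7.73% fell. Of 62 end variants, 14 rose (22.6%) and 16 fell (25.8%). Of 2830 nested sequences, 364 rose (12.9%) and 165 fell (5.83%), and of 1082 remaining sequences, 123 rose (11.4%) and 245 fell (22.6%). The classes were not tested against each other. The split between rises and falls depended on scaling: rises were 52.9% of the 21 nt calls in old against young leaves, but 41.5% with TMM factors, 39.2% with DESeq2 size factors in edgeR and 39.6% with DESeq2. With TMM factors 6 RNA-letter sequences rose and 29 fell, 334 nested ones rose and 290 fell, and 100 remaining ones rose and 300 fell. With DESeq2 size factors the nested class had 321 rises and 322 falls. TMM and DESeq2 size factors moved the median log2 difference of the 21 nt sequences in that contrast by -0.25 and -0.31. For mature against young leaves rises were 81.5% of the calls and 57.7% with DESeq2.

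Among the 409 that changed over the 7 ages, the highest mean fell at day 28 for 218 (53.3%) and at day 4 for 98 (24.0%), while 3 peaked at day 12 and 4 at day 16. Over all 4803 sequences, including those that were not tested, 1112 (23.2%) were highest at day 28, 1259 (26.2%) at day 4, 524 (10.9%) at day 12 and 507 (10.6%) at day 16. The shares over all sequences of 18 to 28 nt were close to these: 24.8% at day 28, 24.9% at day 4, 11.7% at day 12 and 11.3% at day 16. Days 24 and 28 have the shallowest libraries, in which 1 count weighs most in RPM.

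miR166 and miR165 restrict the class III HD-ZIP transcription factors, which give the leaf its upper side; the 2 microRNAs differ by 1 letter and share their seed. In set 1 miR166 had 30953, 114977, 105829, 105005, 166065, 139820 and 155556 RPM at days 4 to 28, and in set 2 it had 88964, 117043, 105566, 107148, 114081, 111316 and 88972 RPM. It was the most abundant sequence in every library except the day 4 library of set 1, its lowest value, and its stages overlapped (old against mature, log2 0.22 ± 0.39 SE, adjusted p = 0.749). miR165 in set 1 had 21264, 40618, 19609, 13237, 11187, 5894 and 4195 RPM, and in set 2 38385, 39439, 17671, 10854, 7440, 4529 and 2038 RPM. From day 8 onward miR165 was lower at each later age in both sets, and the 4 old libraries lay below the 4 mature ones. It fell by 1.91 ± 0.37 on the log2 scale in old against mature leaves (adjusted p = 0.00802) and in old against young leaves (log2 -3.14 ± 0.39, adjusted p = 0.000157), under all 20 alternatives. Standard errors here and below are derived from the fit's log2 fold change and F statistic.

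Rank 431, which shares 20 letters with miR165, was lower still in old leaves. It had 46.4, 57.0, 22.4, 6.77, 2.44, 0 and 0.567 RPM in set 1 at days 4 to 28, and 68.4, 68.9, 15.7, 5.15, 2.13, 0 and 0.600 RPM in set 2. With 2 counts in the 4 old libraries and 242 in the 4 mature ones, its depth-scaled level in mature leaves was 46.5 times that in old leaves (95% counting interval 12.7 to 386). It fell in old against mature leaves (adjusted p = 0.00128), under all 19 alternatives.

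miR159a and miR159b, which restrain MYB transcription factors of the GAMYB type, stood apart in 1 library. miR159a had 71770 RPM at day 4 in set 1 and 4523 RPM at day 4 in set 2, and 7140 to 11996 RPM in the other 12 libraries. miR159b had 27782 RPM in that day 4 library of set 1 and 3743 to 12293 RPM in all others. Neither passed in any stage contrast. For miR159a the log2 difference of mature against young leaves was -0.96 ± 0.58 with that library and 0.45 without it (adjusted p = 0.791 and 0.835). miR396b, which limits the GRF growth factors, averaged 3429 ± 1059, 4112 ± 764 and 3343 ± 1601 RPM in young, mature and old leaves, and did not pass (old against mature, log2 -0.38 ± 0.33, adjusted p = 0.493).

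miR398b acts on copper/zinc superoxide dismutases and accumulates when copper is short. In set 1 it had 304, 1767, 5539, 8637, 11991, 7587 and 10954 RPM at days 4 to 28, and in set 2 995, 1276, 7149, 9636, 12111, 5710 and 6999 RPM. Every mature and old library lay above every young one, with the highest value of each set at day 20. It rose by 2.94 ± 0.43 (log2) in mature against young leaves (adjusted p = 0.00563), under all 19 alternatives, while old against mature leaves did not pass (0.03 ± 0.40, adjusted p = 0.97).

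The unnamed sequences among the 10 most abundant had profiles of their own. Rank 2 had 35430, 38728, 31987, 29610, 23456, 15496 and 8145 RPM in set 1 at days 4 to 28, and 28838, 33196, 29138, 26644, 24071, 15305 and 4731 RPM in set 2. It was lower in all 4 old libraries than in all others, and fell by 1.57 ± 0.31 (log2) in old against mature leaves (adjusted p = 0.00938). The adjusted p was up to 0.0556 when single libraries were left out: the day 24 library of set 1 or those of days 12, 16 or 28 of set 2 each ended the call. Sequences 1 letter shorter or longer at its ends were abundant too (13787 RPM at 20 nt and 21955 RPM at 22 nt, against its own mean of 24627 RPM), whereas those of miR166 were rare (429 and 2462 RPM, against 110807 RPM). Its most abundant longer form, the 32 nt sequence printed above, had a mean of 20619 RPM.

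Rank 7 had 326, 1078, 2532, 7059, 10939, 23488 and 9868 RPM in set 1 and 573, 1221, 3179, 3982, 7487, 8821 and 5587 RPM in set 2. It was higher in every mature library than in every young one, and rose by 2.42 ± 0.42 (log2) in mature against young leaves (adjusted p = 0.0124, up to 0.0992 when the day 8 or day 16 library of set 1 or the day 12 library of set 2 was left out). Its rise in old against mature leaves, 1.45 ± 0.41 (adjusted p = 0.0432), was kept in 8 of 19 alternatives (adjusted p up to 0.191). Rank 9 had 141, 426, 1186, 2852, 4976, 6357 and 7439 RPM in set 1 and 250.5, 413, 1751, 1981, 5554, 6914 and 11347 RPM in set 2. It was higher at each later age in both sets, rising by 2.73 ± 0.35 in mature against young leaves (adjusted p = 0.00378) and by 2.05 ± 0.34 in old against mature leaves (adjusted p = 0.00466), under all 19 alternatives in both contrasts.

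Rank 8, the partner strand of miR167a, peaked in mid-life. It had 2776, 5380, 6622, 7577, 8274, 4500 and 1786 RPM in set 1, and 2085, 4068, 5126, 5476, 5937, 2788 and 2204 RPM in set 2. Both sets were highest at day 20, and the 4 old libraries lay below the 4 mature ones. It fell by 1.19 ± 0.31 (log2) in old against mature leaves (adjusted p = 0.0324), a call kept in 8 of 20 alternatives (adjusted p up to 0.111). miR167a itself, which restrains the auxin response factors ARF6 and ARF8, averaged 830 ± 116 RPM in old and 992 ± 157 RPM in mature leaves and did not pass (adjusted p = 0.717).

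**Figure D4:**
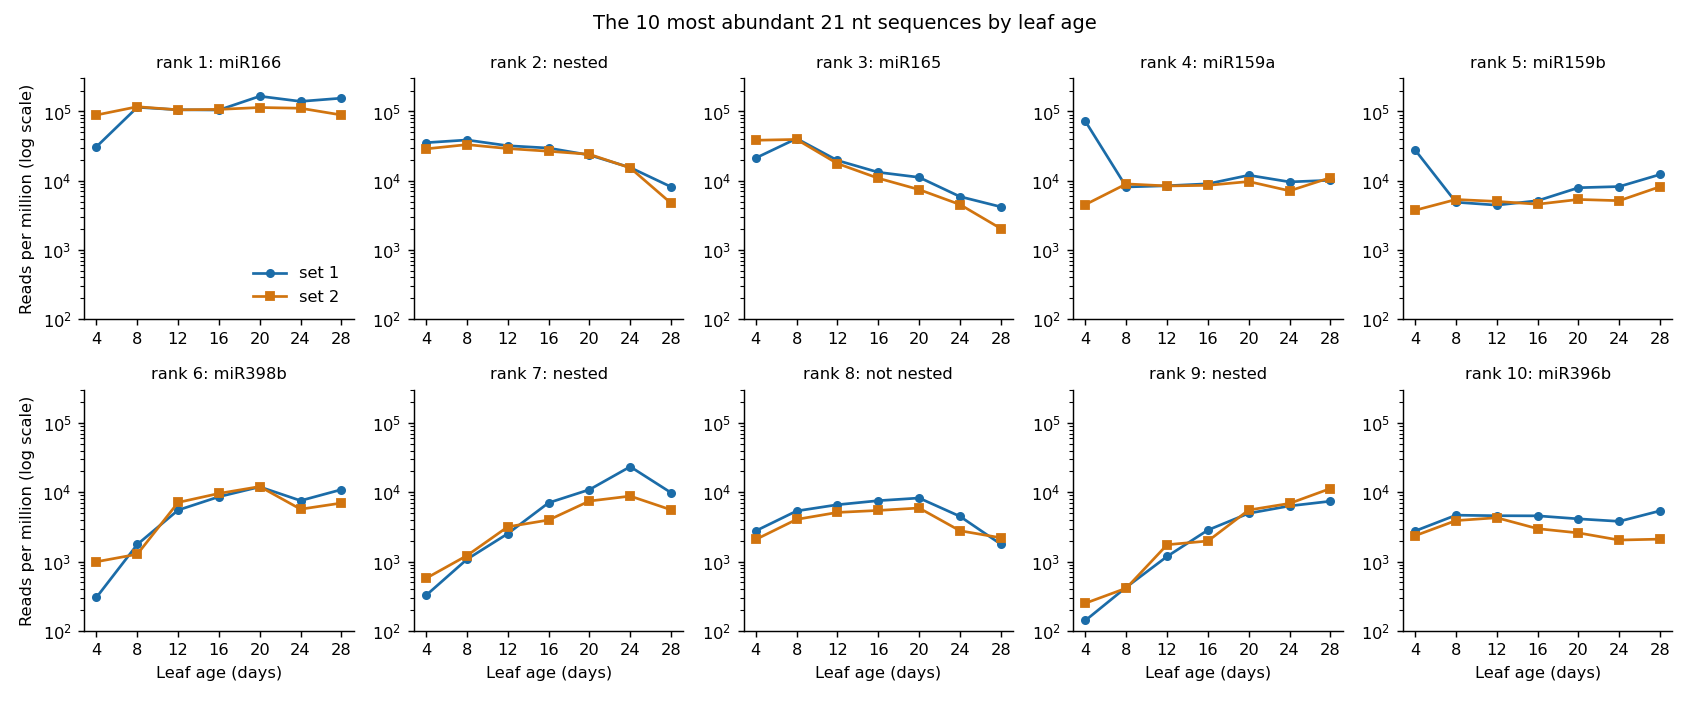
RPM (log axis) of the 10 most abundant 21 nt sequences against leaf age in days, 1 line per set. miR165 and rank 2 end lowest at day 28, ranks 7 and 9 and miR398b start lowest at day 4, and miR159a and miR159b stand apart in the day 4 library of set 1.

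The named microRNAs and trans-acting siRNAs made up 36 families, whose reads were summed and tested in the same fit. No 21 nt member was named for miR156, miR393, miR472, miR857 or TAS4. Partner strands such as rank 8 were not summed into the families, so unnamed sequences may still include strands of these microRNAs. Of 12 families of leaf growth and phase change, 1 fell in mature against young leaves, 3 fell in old against mature leaves and 5 fell in old against young leaves; none rose. Over all features, 0.222%, 2.15% and 5.75% fell in these contrasts and 2.03%, 8.33% and 13.4% rose. The median log2 differences of the 12 were -0.46, -0.67 and -1.01, against 0.07, -0.11 and 0.00 for all features. For features of 18 to 28 nt the medians were 0.10, -0.37 and -0.29. With the day 4 library of set 1 left out, the medians of the 12 were 0.05, -0.65 and -0.58 and the numbers that fell were 0, 4 and 5. The median in mature against young leaves thus rested on that library. The call in that contrast was also lost without the day 12 or day 16 library of either set, or the day 8 library of set 2. In old against mature leaves, leaving out any mature or old library left 1 or 2 falls. Of the 3 that fell in old against mature leaves, 1 was miR165, and the others were miR160 and miR164.

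miR160, which restrains the auxin response factors ARF10, ARF16 and ARF17, had 832, 335, 514 and 263 RPM in old leaves (days 24 and 28 of set 1, then of set 2), against 1344, 1280, 1193 and 758 RPM in mature leaves. The day 16 library of set 2 was the lowest mature one and lay below the highest old one. miR160 fell by 1.35 ± 0.32 (log2, adjusted p = 0.0213), a call kept in 10 of 19 alternatives (adjusted p up to 0.0912). miR164 restrains NAC factors, among them ORE1, a driver of leaf senescence. Its main form miR164a had 6.39, 1.70, 1.90 and 0.600 RPM in old leaves and 22.4, 18.6, 15.9 and 8.80 RPM in mature leaves, without overlap. At day 28, 3 counts equal 1.70 RPM in set 1 and 1.80 RPM in set 2, so both day 28 values rest on 3 counts or fewer. The miR164 family fell by 1.90 ± 0.42 in old against mature leaves (adjusted p = 0.0157, kept in 12 of 19 alternatives, with adjusted p up to 0.0715) and in old against young leaves (log2 -2.89 ± 0.43, adjusted p = 0.000546, kept in all 19). The rarer form miR164c had 1.70 to 3.42 RPM in old leaves, against 1.82 to 5.04 RPM in mature leaves.

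miR171, which restrains the HAM family of GRAS regulators, was the growth family that fell in mature against young leaves, to 28.7 ± 7.95 RPM in mature leaves, against 228 ± 295 RPM in young leaves (log2 -2.53 ± 0.50, adjusted p = 0.0211). Its main form miR171a had 20.3, 21.5, 18.6 and 12.3 RPM in mature leaves, against 620.2, 69.3, 58.9 and 65.0 RPM in young leaves. The day 4 library of set 1 was far above the other young ones, and without it the family's log2 difference was -1.63 (adjusted p = 0.0601) and that of miR171a -1.89 (adjusted p = 0.0383), against -2.94 ± 0.55 with it. The family's call was kept in 13 of 19 alternatives (adjusted p up to 0.137). miR319, which restrains the TCP factors that end cell division in the blade, averaged 19.2 ± 13.3 RPM in old, against 136.5 ± 97.6 RPM in young leaves (log2 -2.82 ± 0.42, adjusted p = 0.000563). miR157, miR159, miR166, miR167, miR172, miR390 and miR396 did not pass in any contrast.

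Of 6 nutrient and copper families, 1 rose in mature against young leaves, 2 rose in old against mature leaves, and 3 rose and 1 fell in old against young leaves, against 2.03%, 8.33% and 13.4% of all features that rose in these contrasts and 5.75% that fell in the last. Their median log2 differences were 1.03, 0.00 and 1.97, and their difference from the growth families was not tested. miR827, which targets NLA, a regulator of phosphate transporters, had 609, 1640, 583 and 964 RPM in old leaves (days 24 and 28 of set 1, then of set 2), against 86.2, 183, 100.1 and 155 RPM in mature leaves. All 4 old libraries lay above all others of days 4 to 16. It rose by 2.81 ± 0.43 (log2, adjusted p = 0.00339), under all 19 alternatives. miR408, which targets the copper proteins plantacyanin and laccases, had 410.5, 1115, 380.0 and 796 RPM in old leaves, against 151, 199, 179.5 and 182 RPM in mature leaves. These did not overlap either, and it rose by 1.77 ± 0.35 (adjusted p = 0.0088; up to 0.0647 when the day 12 or day 16 library of set 1 or the day 16 library of set 2 was left out).

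miR398 passed in mature against young leaves, and in old against mature leaves it did not. In mature against young leaves miR827 had a log2 difference of 0.42 ± 0.41 (adjusted p = 0.976) and miR408 one of 1.35 ± 0.34 (adjusted p = 0.0699); whether the 3 differ in timing was not tested. Rank 64, which has the letters of miR398a-5p, rose in both steps: it had 3.94, 20.6, 5.28 and 20.2 RPM in young leaves, 90.6, 143, 96.7 and 140.2 RPM in mature leaves, and 309, 457, 302 and 537 RPM in old leaves. Its log2 differences were 3.56 ± 0.35 for mature against young (adjusted p = 0.00195) and 1.76 ± 0.33 for old against mature leaves (adjusted p = 0.00688, up to 0.0609 when the day 12 library of set 1 or the day 16 library of set 2 was left out). miR399, which targets the phosphate regulator PHO2, was the nutrient family that fell, with 80.1 ± 10.9 RPM in old leaves and 204 ± 86.2 RPM in young leaves (log2 -1.25 ± 0.32, adjusted p = 0.0159, kept in 15 of 19 alternatives with adjusted p up to 0.0626). miR397 and miR395, which act on laccases and on sulphate assimilation, were at 10.2 RPM or less in the mean of every stage and did not pass.

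None of the 3 families that act on the small RNA machinery passed in any contrast. miR168, which limits AGO1, averaged 2610 ± 949, 1930 ± 250 and 2308 ± 511 RPM in young, mature and old leaves. miR162, which limits DCL1, averaged 708 ± 123, 834 ± 109 and 655 ± 206 RPM, and miR403, which limits AGO2, 3003 ± 820, 2862 ± 406 and 4488 ± 953 RPM. Among trans-acting siRNAs, tasiR-ARF, which is made from TAS3 transcripts and restrains ARF3 and ARF4, had 47.2, 34.0, 19.7 and 20.4 RPM in old leaves, against 89.3, 75.0, 94.3 and 60.1 RPM in mature leaves. The 4 old libraries lay below the 4 mature ones. It fell by 1.44 ± 0.36 (log2, adjusted p = 0.0248), a call kept in 10 of 19 alternatives (adjusted p up to 0.109). The call was lost without the replicate block and when any single mature or old library was left out. The summed TAS1 siRNAs siR480 and siR255 (log2 -0.39 ± 0.33, adjusted p = 0.486) and the TAS2 siRNA siR1511 (-0.19 ± 0.30, adjusted p = 0.723) did not pass in old against mature leaves, and the difference between TAS3 and TAS1 was not tested.

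Of the 11 other families, 1 rose and 2 fell in old against mature leaves, and 1 rose and 6 fell in old against young leaves. Over all features 8.33% rose and 2.15% fell in the first of these contrasts, and 13.4% rose and 5.75% fell in the second. miR169, which restrains NF-YA transcription factors, had the largest fall of any family. Its main form miR169h had 4.92, 1.70, 4.56 and 1.80 RPM in old leaves, against 44.8, 28.7, 31.8 and 18.1 RPM in mature leaves. The family fell by 3.36 ± 0.59 (log2) in old against mature leaves (adjusted p = 0.00555, kept in all 19 alternatives). miR822 averaged 45.4 ± 10.8 RPM in old and 126 ± 27.1 RPM in mature leaves (log2 -1.49 ± 0.33, adjusted p = 0.016, kept in 12 of 19 alternatives, with adjusted p up to 0.0807). miR846 was the family that rose in both steps, averaging 23.2 ± 10.1 RPM in young, 65.8 ± 10.5 RPM in mature and 149.5 ± 42.3 RPM in old leaves. Its calls were kept in 5 of 19 alternatives for mature against young leaves (adjusted p = 0.0275, up to 0.207) and in 3 of 19 for old against mature leaves (adjusted p = 0.0454, up to 0.161). In old against young leaves, miR161, miR169, miR400, miR822, miR847 and miR858 fell. miR825, the 1 family named in the hormone receptor and immune group, fell in old against young leaves (log2 -2.31 ± 0.39, adjusted p = 0.00115).

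**Figure D5:**
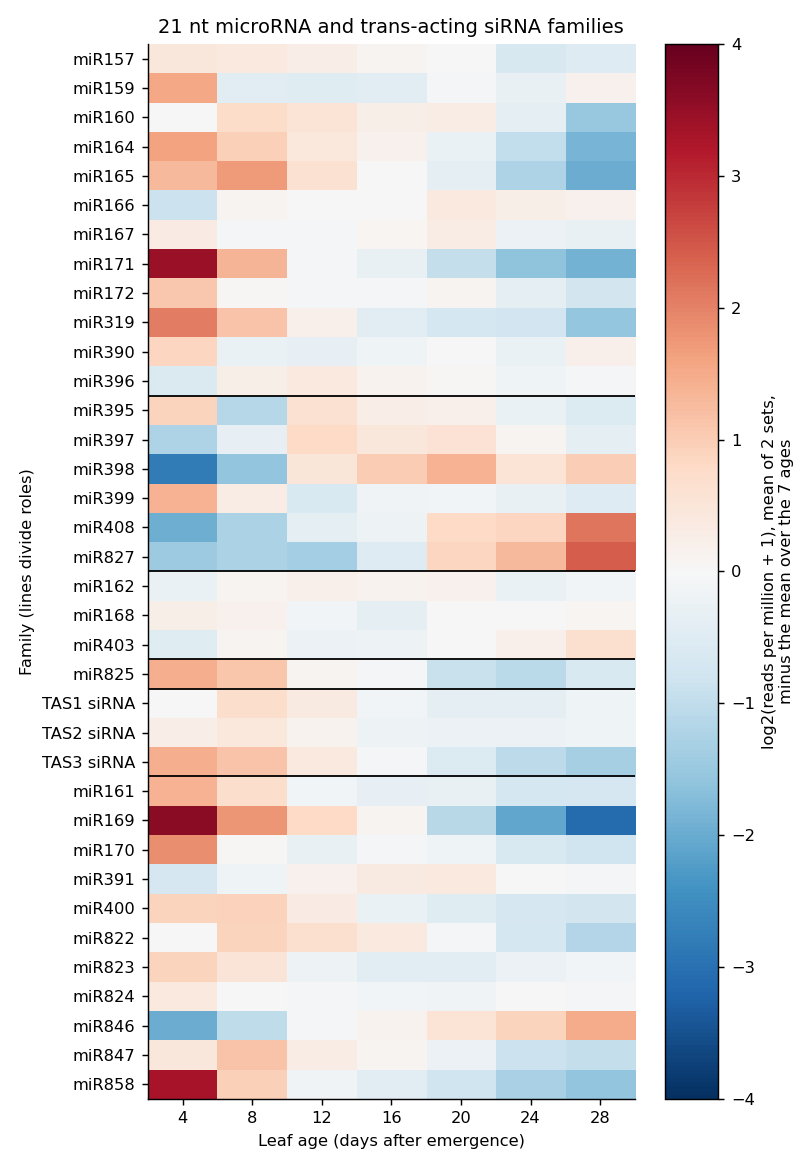
Log2 of each family's mean RPM plus 1 at each age, minus the mean of these log2 values over all ages, by role. Leaf age in days runs from left to right (colour scale limited to 4 on either side of 0). The added 1 damps the changes of families at a few RPM. miR827, miR408 and miR398 are lowest at the youngest ages, and miR165, miR164, miR169 and the TAS3 siRNA are lowest at the oldest.

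The sequences with the largest changes were mostly not named here, and some may be strands of known microRNAs, as rank 64 is by its letters. In mature against young leaves the 5 largest rises were ranks 207, 149, 222, 21 and 64. Rank 149 had 46.1, 59.9, 36.6 and 56.6 RPM in mature leaves (days 12 and 16 of set 1, then of set 2), against 0.856, 4.38, 0.677 and 4.87 RPM in young leaves, and rose by 4.67 ± 0.38 (log2, adjusted p = 0.00168) under all 19 alternatives. Rank 207 had 2.08, 39.8, 3.47 and 18.1 RPM in mature leaves and 0 counts in all 4 young libraries, so it was at least 31.9-fold higher in mature leaves, with young leaves set at 3 counts per library (adjusted p = 0.00195). Rank 21, nested in a 29 nt sequence that averaged 199164 RPM, had 486, 1373, 674 and 859 RPM in mature leaves, against 15.4, 188, 24.4 and 187 RPM in young leaves, and rose by 3.71 ± 0.40 (adjusted p = 0.00195). Rank 222 averaged 11.7 ± 12.0 RPM in mature and 0.364 ± 0.277 RPM in young leaves (adjusted p = 0.00768; leaving out day 12 of set 2 gave 0.0696).

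The 5 largest falls in mature against young leaves were ranks 1049, 1230, 1369 and 1626 and miR171a, all highest in the day 4 library of set 1. Rank 1626 had 3.38, 1.39, 1.10 and 0.997 RPM in mature leaves, against 20.5, 10.96, 13.8 and 9.18 RPM in young leaves, without overlap (log2 -3.04 ± 0.60, adjusted p = 0.025). Without that library the 4 unnamed falls did not pass (adjusted p = 0.0971 for rank 1049, 0.0595 for rank 1230, 0.0794 for rank 1369 and 0.0792 for rank 1626). Rank 1230 shares 19 letters with miR319a.

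In old against mature leaves the 5 largest falls were ranks 615, 363, 431, 302 and 163. Rank 363, nested in a 31 nt sequence, had 5.41, 0, 8.35 and 0 RPM in old leaves, against 48.7, 49.3, 43.5 and 45.3 RPM in mature leaves. The mature libraries lay close together and both day 28 libraries were at 0. Rank 363 fell in old leaves, averaging 3.44 ± 4.15 RPM, against 46.7 ± 2.77 RPM in mature leaves (adjusted p = 0.000977). Its fitted log2 difference, -6.70, was larger in size than these means give. That value rests on the 0 counts at day 28 and does not measure the size of the fall. The limit that a count of 0 allows at day 28 was 1.70 RPM in set 1 and 1.80 RPM in set 2. Rank 615 had 2 counts in old leaves and 392 in mature leaves, a depth-scaled ratio of mature to old leaves of 75.3 (95% counting interval 20.7 to 624; adjusted p = 0.00128). It differs from rank 302 by 1 letter; rank 302 averaged 1.14 ± 1.08 RPM in old and 21.2 ± 12.9 RPM in mature leaves (log2 -4.63 ± 0.53, adjusted p = 0.00134). Rank 163 averaged 6.28 ± 4.27 RPM in old and 86.0 ± 19.4 RPM in mature leaves (log2 -4.03 ± 0.43, adjusted p = 0.00118). These 5 falls were called under every alternative run, including those without the day 4 library of set 1.

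The 5 largest rises in old against mature leaves, ranks 1282, 67, 1489, 1312 and 630, were all nested in longer sequences of 29 to 39 nt. Most sequences were nested in any case: 171 of the 209 rises called in this contrast and 2830 of the 4043 sequences tested. Rank 67 had 195, 642, 314 and 1083 RPM in old leaves, against 28.6, 7.64, 5.85 and 99.2 RPM in mature leaves. The old libraries lay above all mature ones, which themselves differed widely (log2 3.95 ± 0.94, adjusted p = 0.0214, kept in 13 of 19 alternatives, with adjusted p up to 0.0984). Rank 630 had 17.2, 47.7, 30.0 and 76.8 RPM in old leaves, against 2.08, 1.22, 1.28 and 7.81 RPM in mature leaves (log2 3.82 ± 0.55, adjusted p = 0.00282). Ranks 1282, 1312 and 1489 averaged 15.4 to 18.4 RPM in old leaves and 0.846 to 0.963 RPM in mature leaves, with log2 differences of 4.04 ± 0.68, 3.83 ± 0.75 and 3.92 ± 0.54 (adjusted p = 0.00468, 0.00888 and 0.0023). The adjusted p of rank 1312 was up to 0.0635 when day 12 of either set or day 28 of set 2 was left out. Within each of the 5, day 28 was above day 24 in both sets.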

How the data were processed

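Small RNA sequencing of 14 leaf libraries (WelPrep RNA, HiSeq2000, per the labels' protocols) was deposited by the authors as 2 tables of raw read counts per distinct sequence, 1 per set, with no names or coordinates. The submitters' processing notes name TopHat 1.4.0, Cufflinks and TAIR10; how these were applied to the small RNA, including adapter removal and length limits, is not stated in those notes or the labels. Some sequences are listed in both orientations: equal counts were taken once and different ones summed (85 features of 21 nt in set 1, 77 in set 2). Features listed in 1 table only (516 and 1043 of 21 nt, holding 0.167% and 0.353% of 21 nt reads) were left out of the main values.

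Counts were scaled to listed reads of 18 to 28 nt. Stage values were compared by exact two-sided permutation tests (70 arrangements, smallest p 0.0286; within sets 36 arrangements cannot go below 0.0556). Single features and summed classes or families were tested with edgeR 4.0.16 in R 4.3.3 (quasi-likelihood, day and set as terms, at least 10 counts in at least 2 libraries, library size as above with no further factor), Benjamini-Hochberg adjusted over all 46841 features. The standard error is the absolute log2 fold change divided by the square root of F. The procedure was tested on simulated data. Alternatives were TMM and DESeq2 1.42.0 scaling, DESeq2's own test, no replicate block, no filter, reverse complements kept apart, other denominators and leaving out each library; nesting in sequences of 25 nt or more was added after seeing the data. Dropping the filter, or leaving out a library outside the stages compared, hardly moves the log2 difference of a contrast. Such runs count among the alternatives that kept a call, although they test it little. Intervals and floors cover counting error only, since reads without molecular identifiers are not independent molecules.

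The text names the 10 sequences of highest mean RPM, the 5 largest rises and falls between neighbouring stages among those called, moving the same way in both sets and with a mean of at least 10 RPM in 1 stage, and microRNA and TAS families grouped by role. Members and lists were chosen with earlier results of these data known. No genome or microRNA table was used, so classes by genomic origin are not analysed here and names rest on the letters alone.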

Additional observations from a re-analysis of the deposited data

Results flagged for a closer look

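In 213 stage groups of 4 libraries, covering 71 quantities, the highest or lowest library was tested for a gap to the others larger than Dixon's 95% critical value. This singled out 33 values. Chance gives about 1 in 20 groups for independent quantities, but these overlap, as miR159 does with miR159a and miR159b. Ranks 1049, 1230 and 1369 were also picked as large falls, so that rate is no yardstick here. Of the 33 values, 18 belong to the day 4 library of set 1. In that library the following were far above the other 3 young libraries, in RPM: the miR159 family at 99564 (others at most 14333), miR159a at 71770, miR159b at 27782, miR161 at 2694, miR390 at 1302, miR171 at 670.3 with miR171a at 620.2, miR169 at 571, miR319 at 282, the TAS3 siRNA at 238, miR172 at 143, miR858 at 64.5, miR170 at 33.2, miR395 at 26.0, rank 1049 at 71.5, rank 1230 at 49.1 and rank 1369 at 39.5. miR165, at 21264 RPM (others at least 38385), was far below them.

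The remaining 15 values fell in 8 other libraries. In young leaves, rank 67 was at 105 RPM and rank 1282 at 3.20 RPM in the day 8 library of set 1, and miR391 was at 13.7 RPM and rank 1312 at 0 RPM in the day 4 library of set 2, the last 2 below the others. In mature leaves, miR161 was low at 460.4 RPM and rank 630 high at 7.81 RPM at day 16 of set 2, miR390 was high at 425 RPM and rank 1369 low at 1.04 RPM at day 16 of set 1, and miR823 at 8.85 RPM and rank 1626 at 3.38 RPM were high at day 12 of set 1. In old leaves, miR825 was high at 7.94 RPM at day 28 of set 1, rank 21 at 3416 RPM, rank 1230 at 2.46 RPM and rank 1626 at 0.492 RPM at day 24 of set 1, and rank 1049 at 0.600 RPM at day 28 of set 2. Ranks 1626 and 1049 had 1 count each over all old libraries. For these and rank 1230 the other old libraries were at 0, where any count gives such a gap, so these flags carry little.

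The sets moved in opposite directions in 6 quantities, every library of one set going one way and every library of the other the opposite way; none of these differences between sets was tested. In old against mature leaves, the share of 21 nt reads differed by 3.81 points in set 1 and -2.03 in set 2, and the share of the 10 most abundant by 1.68 and -4.62 points. In the same contrast the RNA-letter class differed by 5.45 points in set 1 and -2.70 in set 2, and the nested class by -2.49 and 4.07 points. The effective number in old against young leaves differed by -3.62 in set 1 and 13.3 in set 2. miR390 differed by -483 RPM in set 1 and 60.5 RPM in set 2 in mature against young leaves.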

How the results depend on the processing

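Of the values of main results under the alternatives run, 430 kept their direction and side of the threshold, 25 moved, 12 lost and 3 gained the call, and 2 reversed. Of those for single sequences and families, 5897 kept both, 299 lost the call, 83 gained it and none reversed. Against listed reads of all lengths, the share of 21 nt reads in old leaves reversed against mature leaves (-9.87 points, unadjusted exact permutation p = 0.0286). The difference from young leaves widened to -13.9 points (unadjusted exact permutation p = 0.0286). With reverse complements kept apart the old minus young difference was 4.31. The effective number in mature minus young leaves was 4.58 with all features of each set (exact permutation p = 0.0571), 0.433 with reverse complements kept apart and -0.593 as the inverse Simpson number. The share of the 10 most abundant in that contrast was -1.94 with reverse complements kept apart and -1.31 for the same 10 in every library. Leaving out 1 library gave 3.38 to 5.57 for the effective number and -4.78 to -3.67 for that share in mature minus young leaves, -7.02 to -3.45 for that share in old minus young leaves, and -0.450 to -0.158 for the log2 ratio of 21 to 24 nt in mature minus young leaves.

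Counts of calls were more sensitive. DESeq2 called 248 in mature against young leaves, against 151 in the main test. Leaving out 1 library gave 18 to 183 (mature against young; lowest without day 12 of set 2), 65 to 436 (old against mature; lowest without day 16 of set 2), 634 to 904 (old against young; lowest without day 24 of set 1) and 210 to 423 (7 ages; lowest without day 28 of set 2). Without the replicate block the counts were 97, 247, 785 and 335, in the same order. The set numbers are not shown to pair the libraries: correlations of set differences between ages were -0.192 to 0.501 (median 0.135) over 21 nt sequences. Among the named calls, those of tasiR-ARF, rank 8, miR846, miR319a, miR171b and rank 1626 in old against mature leaves, of miR846, miR319a and rank 302 in mature against young leaves, and of miR164c in old against young leaves were lost without the block. The cause of these shifts was not tested. Classes by genome, by microRNA table and with ribosomal, transfer or chloroplast RNA left out of the denominator were not run, because no genome or microRNA table was used here. Depth limits rare sequences in old leaves, where 3 counts equal up to 1.80 RPM.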
